A study of Bombyx mori with 3 samples.

Results

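Corazonin and myosuppressin are 2 peptide hormones of the insect brain, and their precursor genes Crz (GeneID_692443) and MS (GeneID_100379613) were described here together with 2 peptide receptor genes, FaR (GeneID_692556) and NGR-A24 (GeneID_100174935). These 4 genes, of 17072 in the deposited tables, were selected by identifier, and all 4 passed every filter used. The RNA came from larval brains of the silkworm Bombyx mori (wild type, strain P50, reared on mulberry leaves) on day 3 of the last, 5th, instar. The 3 libraries form 1 group, replicates 1, 2 and 3, so levels are compared between genes and between libraries, not between conditions. The labels do not state whether separate animals went into each library, and the spread given below as the SD (n = 3) may be partly technical.

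Neuropeptides are made as longer precursors, which are cleaved, often amidated at the carboxyl end, stored in vesicles and released onto G protein-coupled receptors, membrane proteins with several transmembrane segments. Corazonin is made by lateral neurosecretory cells of the brain. In the silkworm its injection slows spinning, and in the hornworm Manduca sexta it acts early in the chain of hormones that leads to ecdysis. Myosuppressin damps contraction of visceral muscle, and in the silkworm it also lowers ecdysteroid output of the prothoracic gland. FaR, with the synonym BRFaR in the reference gene table, is taken here, by that name, as a receptor for silkworm FMRFamide-related peptides. NGR-A24 is a silkworm neuropeptide receptor that responds to ion transport peptide-like and to tachykinin-related peptides. None of the 4 genes is the receptor of another of them: the corazonin receptor is NGR-A21 (synonym CRZR) and the myosuppressin receptor is msR (synonym bmsr).

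Total gene counts per library ran from 17935488 to 23895452. All 5 neuron markers searched (Elav, Tau, Syti, Nav and nAChRa7) reached 1 TPM (transcripts per 1000000, a level divided by gene length) in every library, with a summed level of 604 to 633 TPM, as did all 4 glia genes (249 to 258 TPM). All 4 silk gland genes, all 4 midgut genes and Jhamt, a corpora allata gene, stayed under 1 TPM in every library, as did 3 of 4 fat body genes. Of the prothoracic gland genes, Cyp306a1 measured 13.8 to 22.7 TPM and Nvd stayed under 1 TPM in every library. Replicate 1 stood apart in the 5 cuticle and epidermis genes, whose summed level was 1201 TPM there against 22227 and 25168 TPM in replicates 2 and 3. Cyp4g25 made up most of that gap (57.4, 17071 and 21774 TPM), and the other 4 summed to 1143, 5157 and 3395 TPM. The 3 hemocyte genes summed to 76.4, 118 and 221 TPM in that order, and the 4 muscle genes to 2822, 6821 and 2718 TPM. A1 and MLC-2 carried the muscle sum, while Tm (65.1, 55.5 and 53.5 TPM) and A2 (5.31, 3.98 and 4.21 TPM) were highest in replicate 1.

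Both precursor genes stood far above both receptor genes in each library. Crz measured 304, 270.1 and 248 TPM in replicates 1, 2 and 3, a mean of 274 ± 28.6 TPM (SD, n = 3). MS measured 189 TPM, 140.1 TPM and 160.4 TPM in the same order, a mean of 163 ± 24.7 TPM. Replicate 1 was highest for both genes, and the lowest Crz library lay above the highest MS library. FaR measured 26.2, 25.5 and 26.3 TPM (mean 26.0 ± 0.471 TPM). NGR-A24 measured 22.6, 21.8 and 22.3 TPM (mean 22.2 ± 0.392 TPM). The order Crz, MS, FaR, NGR-A24 held in all 3 libraries, and no neighbours in this order had overlapping values. As the genes were chosen with their levels known, these differences are a description and were not tested. In a bulk sample, fewer cells that make a transcript and less of it per cell cannot be told apart.

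**Figure D1:**
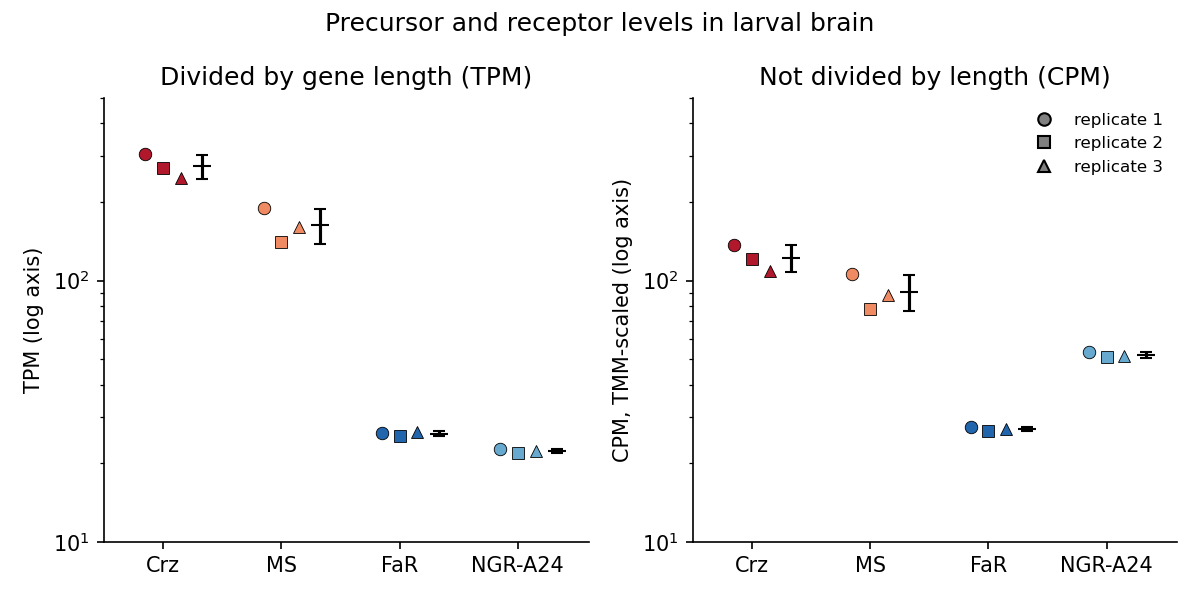
Levels of the 4 genes in each larval brain library, on the left in TPM and on the right in CPM (counts scaled to library size by TMM), both on log axes; points are replicates 1 to 3 and the bar beside them is the mean ± SD. FaR lies above NGR-A24 in TPM (26.2 against 22.6 in replicate 1) and below it in CPM (27.5 against 53.3).

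The order of the receptors turned on the division by gene length. CPM, the counts of a gene per 1000000 reads of the library after TMM scaling, is not divided by length. Crz measured 137, 121 and 109 CPM in replicates 1, 2 and 3, from 2768, 2149 and 2596 counts. MS measured 106, 78.2 and 87.9 CPM, from 2141, 1387 and 2091 counts. Crz again lay above MS in every library, and its lowest library stayed above the highest of MS. FaR measured 27.5, 26.6 and 27.03 CPM, from 555, 472 and 643 counts, and NGR-A24 53.3, 51.1 and 51.4 CPM, from 1073, 907 and 1222 counts. NGR-A24 thus had more reads than FaR in every library but a lower TPM in every library. Gene lengths, taken from counts over TPM and set relative to Crz, were 1.24 for MS, 2.33 for FaR and 5.23 for NGR-A24. Levels of different genes are comparable per length, in TPM. Orders and ratios in CPM, given beside it below, are of reads and carry the gene lengths with them.

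Crz and MS exceeded FaR and NGR-A24 by 5.50 to 13.5 times in TPM, over 4 pairs and 3 libraries. Crz exceeded FaR by 11.6, 10.6 and 9.41 times in TPM in replicates 1, 2 and 3 (mean log2 ratio 3.39 ± 0.15; SD, n = 3), and by 4.99, 4.55 and 4.04 times in CPM (2.17 ± 0.15). Against NGR-A24, Crz was 13.5, 12.4 and 11.1 times higher in TPM (log2 ratio 3.62 ± 0.14) and 2.58, 2.37 and 2.12 times higher in CPM (1.23 ± 0.14). In each of these pairs the ratio was highest in replicate 1 and lowest in replicate 3. MS exceeded FaR by 7.22, 5.50 and 6.09 times in TPM (log2 ratio 2.64 ± 0.20) and by 3.86, 2.94 and 3.25 times in CPM (1.73 ± 0.20). The MS to NGR-A24 ratio was 8.38, 6.42 and 7.19 in TPM (log2 ratio 2.87 ± 0.19) and 1.995, 1.53 and 1.71 in CPM (0.79 ± 0.19). Precursor stood above receptor in both units and in all 3 libraries for all 4 pairs, by less in CPM. Between the receptors, the ratio of FaR to NGR-A24 was 1.16, 1.17 and 1.18 in TPM.

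Set against their own receptors, the precursors stood higher still. NGR-A21, the corazonin receptor, measured 1.46, 2.25 and 1.51 TPM, from only 26, 35 and 31 counts. Crz exceeded it by 208, 120.0 and 164 times in TPM, and by 106, 61.4 and 83.7 times in counts. Counting alone gives the NGR-A21 counts a coefficient of variation of 18.1%. msR, the myosuppressin receptor, measured 1.87, 2.69 and 2.27 TPM, from 80, 101 and 112 counts. MS exceeded it by 101, 52.1 and 70.8 times in TPM, and by 26.8, 13.7 and 18.7 times in counts. Both receptors were detected in every library, both lay among the lower members of the receptor list, at ranks 36 and 33 of 47, and their values overlapped.

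FaR and NGR-A24 showed another balance with the precursors of their own ligands. Fa, the precursor of the FMRFamide-related peptides (synonym BRFa), measured 10.7, 6.62 and 10.1 TPM, so its level was 0.409, 0.260 and 0.382 of that of FaR in TPM, and 0.220, 0.140 and 0.205 in counts. Fa was below FaR in all 3 libraries, without overlap. Tk, the tachykinin precursor, measured 20.7, 14.1 and 17.7 TPM, or 0.915, 0.647 and 0.792 of the level of NGR-A24, and 0.473, 0.334 and 0.409 in counts. Tk, too, stayed below the receptor in all 3 libraries. ITP, the gene of ion transport peptide and, by alternative splicing, of its longer ITP-like form, measured 87.04, 93.1 and 76.7 TPM, or 3.85, 4.27 and 3.44 times NGR-A24, and 2.25, 2.49 and 2.01 times in counts. Counts per gene do not separate the spliced forms. Over these 5 pairs the precursor thus ran from less than the receptor set beside it (Fa, Tk) to between 52.1 and 208 times that receptor in TPM (Crz, MS). This range was not tested. Of the other receptors fixed as possible partners, NGR-A32 and NGR-A33, which respond to natalisin or tachykinin-type peptides, stood at 3.92 ± 0.467 and 14.6 ± 1.62 TPM. Tk lay above both in each library, though its values overlapped those of NGR-A33 (14.5, 12.9 and 16.2 TPM). The place of Tk below a receptor thus held for NGR-A24 and not for NGR-A32 or NGR-A33. NGR-A1, for which no role is given here, was at 8.19 ± 0.334 TPM.

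**Figure D2:**
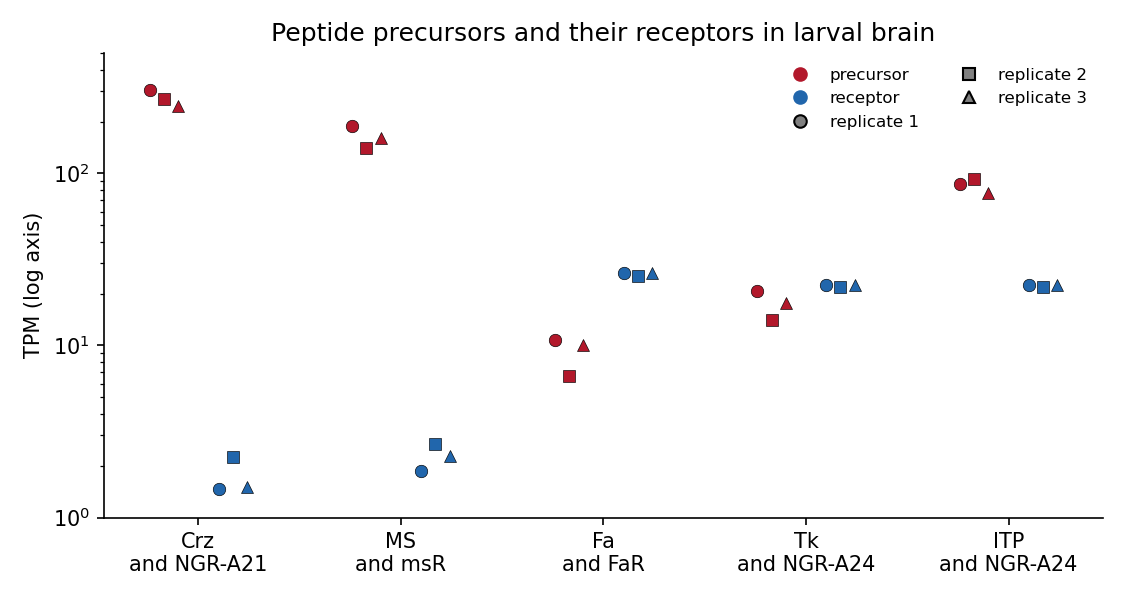
TPM on a log axis of 5 peptide precursors (red) and their receptors (blue) in replicates 1 to 3. Crz and MS lie between 140.1 and 304 TPM above receptors of 1.46 to 2.69 TPM, while Fa and Tk lie below FaR and NGR-A24.

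Among peptide precursors, Crz ranked high in both units and MS moved up when length was left out. Of 52 matched precursor genes, 23 were bombyxins, the insulin-like peptides of the brain. Some precursors searched for, such as those of orcokinin and natalisin, had no match by name. Ranks and shares are therefore among the matched genes only. Crz ranked 3 of 52 by mean TPM, under the bombyxins Bbx-g1 (379.9 ± 26.5 TPM; SD, n = 3) and Bbx-c1 (326 ± 19.6 TPM), and first among the 29 other precursors. Its values overlapped those of Bbx-a7 at rank 4 (277, 258 and 258 TPM), which lay above it in replicate 3. By CPM it ranked 1 of 52, at 123 ± 14.2 CPM. ITP ranked next by CPM at 117 ± 12.4 CPM, and its values overlapped those of Crz. MS ranked 12 of 52 in TPM, with values that overlapped those of its neighbours AKH2 and Bbx-b8, and 5 of 52 in CPM, where it followed EH, the eclosion hormone gene (97.3 ± 11.4 CPM), and PTSP, the prothoracicostatic peptide gene (94.5 ± 19.3 CPM), again with overlapping values. Crz supplied 14.7 ± 0.986% of the TPM of the 29 precursors other than bombyxins, and MS 8.75 ± 0.876%. In the whole list, 44 of 52 precursors reached 1 TPM in every library (84.6%), against 58.1% of all genes, with a list median of 55.4 ± 5.36 TPM against 6.34 ± 0.767 TPM over all genes.

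The receptors ranked near the head of a list that was much lower. Of 47 matched receptor genes, 36 reached 1 TPM in every library and the list median was 4.55 ± 0.416 TPM. FaR ranked 2 and NGR-A24 3 in TPM, under Akhr, the adipokinetic hormone receptor (32.5 ± 1.31 TPM). Neighbours in the order Akhr, FaR, NGR-A24, NGR-B1 (19.8 ± 0.802 TPM) did not overlap over the libraries. In replicate 3, however, the list member Dhr-1 (24.8 TPM) lay above NGR-A24 (22.3 TPM), which ranked 4 there. By CPM, NGR-A24 ranked 2 and FaR 5 of 47, with NGR-A18 first at 64.5 ± 11.4 CPM. FaR supplied 8.25 ± 0.614% of the TPM of the list and NGR-A24 7.06 ± 0.577%. Both Crz and MS lay wholly above all 47 receptors in TPM and in CPM. In the opposite direction, FaR lay wholly below 33 of the 52 precursors in TPM but below only 18 in CPM. NGR-A24 lay wholly below 36 in TPM and 7 in CPM. The list medians were 55.4 against 4.55 TPM, and 15.98 ± 2.81 against 4.84 ± 0.794 CPM, so the gap between the lists was smaller when length was left out.

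**Figure D3:**
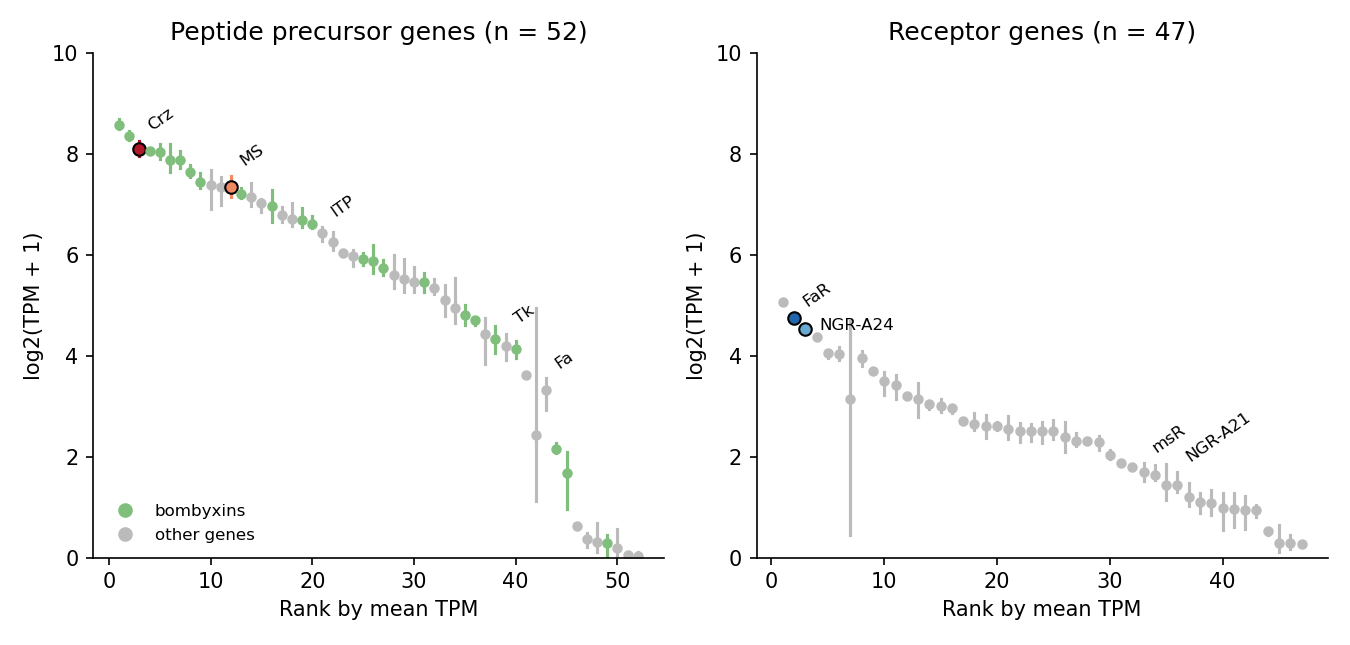
Peptide precursor genes (left, 52) and receptor genes (right, 47) ranked by mean TPM, with log2(TPM + 1) on the y axis, the mean as a point and the range over 3 libraries as a line. Crz and MS rank 3 and 12 among precursors, and FaR and NGR-A24 rank 2 and 3 among receptors. The long line at receptor rank 7 is Dhr-1, with 0.368, 18.8 and 24.8 TPM in the 3 libraries. It was matched through a synonym, and whether it is a peptide receptor was not checked.

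The genes most like each member were found by the root mean square difference of log2(TPM + 1) over the 3 libraries within its own list. Nearest to Crz were the bombyxins Bbx-a8 (0.07), Bbx-a7 (0.09), Bbx-a2 (0.21) and Bbx-c1 (0.26). Nearest to MS were Bbx-a3 (0.14), Bbx-b8 (0.17), IMFa, a neuropeptide precursor (0.22), and Bbx-c2 (0.32). Bbx-a8 measured 290.5, 256 and 237 TPM, with replicate 1 highest and replicate 3 lowest as in Crz, and IMFa measured 170.4, 124 and 130 TPM, with replicate 2 lowest as in MS. Bbx-a2 (267, 233 and 210 TPM) and Bbx-c1 (348, 318 and 311 TPM) had the order of Crz too. Bbx-b8 (158.5, 138 and 144 TPM) had that of MS. Other near genes had another order of libraries: Bbx-a3 (197, 165 and 159.5 TPM) and Bbx-c2 (218, 194 and 186 TPM) were lowest in replicate 3, unlike MS. Bbx-a7, near Crz, was about level in replicates 2 and 3. Nearest to FaR were NGR-A24 (0.22), Akhr (0.31), NGR-B1 (0.38) and NGR-A13 (0.71). Nearest to NGR-A24 were NGR-B1 (0.17), FaR (0.22), NGR-A13 (0.49) and NGR-A10 (0.51). A likeness over 3 libraries mostly ranks genes by level, and bombyxins form a family of similar copies, between which reads could be split by the counting. Of the listed genes of peptide processing and release, only the vesicle genes Syti, a synaptotagmin (138 ± 1.95 TPM), and Rab3, a vesicle GTPase (85.1 ± 5.45 TPM), were matched.

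Crz and MS differed between libraries beyond counting noise, and for FaR and NGR-A24 no such difference was detected. Whether the precursors and the receptors differ in this was not tested. A chi-square test of each gene's counts against TMM-scaled library sizes called Crz (Benjamini-Hochberg adjusted p = 2.78e-15) and MS (adjusted p = 2.20e-18) but neither FaR (adjusted p = 0.881) nor NGR-A24 (adjusted p = 0.652). The test called 6061 of 10664 genes (56.8%), so 2 of 4 members called is close to the share over the table. For MS, replicate 1 was 1.36 times replicate 2 (exact 95% interval 1.27 to 1.46, counting error only) and 1.21 times replicate 3 (1.14 to 1.28). For Crz, replicate 1 was 1.13 times replicate 2 (1.07 to 1.20) and 1.26 times replicate 3 (1.19 to 1.33). Replicate 2 was above replicate 3 for Crz (1.11 times, 1.05 to 1.18) and below it for MS (0.889 times, 0.830 to 0.952). For FaR the 3 ratios between libraries ran from 0.984 to 1.04 with intervals between 0.872 and 1.17, and for NGR-A24 from 0.995 to 1.04 with intervals between 0.912 and 1.14. Differences inside these intervals were not detectable at this depth. Without replicate 1 the test called 18.6% of all genes and still called both precursors (adjusted p = 0.00227 for Crz and 0.00825 for MS).

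As measured over the 3 libraries, the spread was several times larger for Crz and MS than for FaR and NGR-A24, a difference that was not tested. The coefficient of variation of the TMM-scaled CPM was 11.6% for Crz and 15.7% for MS, where counting alone gives 1.998% and 2.31%. It was 1.75% for FaR and 2.25% for NGR-A24, below the 4.24% and 3.06% that counting alone gives. The biological coefficient of variation (BCV), edgeR's estimate of the spread beyond counting noise, was 0.114 for Crz and 0.154 for MS, higher than in 73.3% and 82.7% of 10173 genes. Among genes with a mean count within 2-fold of their own, it was higher than in 86.2% of 3007 for Crz and 93.1% of 3588 for MS. FaR and NGR-A24 were at the lower limit of the estimate, as were 21.8% of all genes, so this place is not particular to them.

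**Figure D4:**
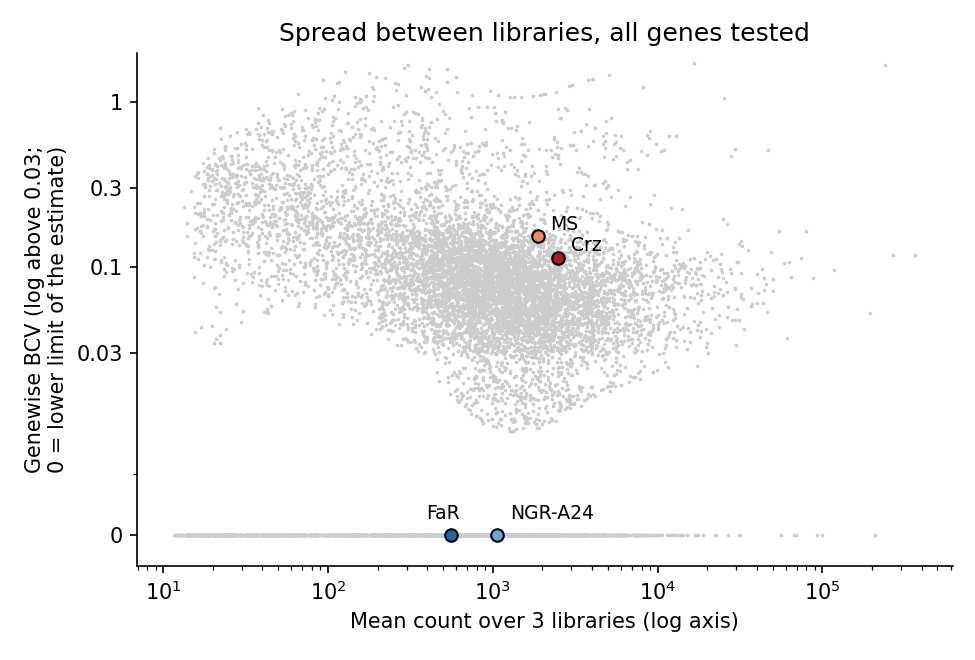
Genewise BCV against mean count (log axis) for 10173 genes (grey), with the 4 members in colour; the y axis is logarithmic above 0.03 and 0 marks the lower limit of the estimate. MS (0.154) and Crz (0.114) lie in the upper part of the cloud and both receptors at the lower limit.

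Replicate 1, the highest library for Crz and MS, was also the highest for most of the precursors that differed between libraries. Of 43 precursors tested, 33 (76.7%) were called by the chi-square test, against 56.8% of all genes, and 28 of these were highest in replicate 1. Over all genes, 2510 of the 6061 called were highest in replicate 1, which is 23.5% of the 10664 tested. Of 43 receptors tested, 11 (25.6%) were called and 0 of those were highest in replicate 1. Without the bombyxins, 22 of 23 precursors were called, 17 of them highest in replicate 1. Without replicate 1, 8 of 43 precursors (18.6%) and 4 of 43 receptors (9.30%) were called, against 18.6% of all genes. The share over the whole precursor list was then that of the table. For precursors other than bombyxins it was 8 of 23 (34.8%), still above that of the table. These list counts are a description and the difference between the lists was not tested.

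In log2(CPM + 1), replicate 1 lay 0.17 above the mean of 3 libraries for Crz and 0.24 above for MS, against a median of 0.19 for precursors without bombyxins, 0.16 for bombyxins and -0.0045 for receptors. The median of neuron markers was 0.03 above in replicate 1 and that of glia markers 0.01 above. AKH1 and AKH2, hormone genes of the corpora cardiaca, glands attached to the brain where corazonin is also stored, went the other way. AKH1 measured 119, 189 and 204 TPM and AKH2 126, 181 and 184 TPM, so replicate 1 was lowest for both. Among the other called precursors, pburs, PBAN and ITP were not highest in replicate 1 either. pburs measured 13.3, 25.2 and 25.8 TPM. PBAN measured 1.17, 1.34 and 30.0 TPM, from 9, 9 and 265 counts, and ITP was highest in replicate 2. Replicate 1 was also the library with the low cuticle and epidermis genes given above. Their part, and that of the corpora cardiaca, in the spread of Crz and MS was not tested.

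**Figure D5:**
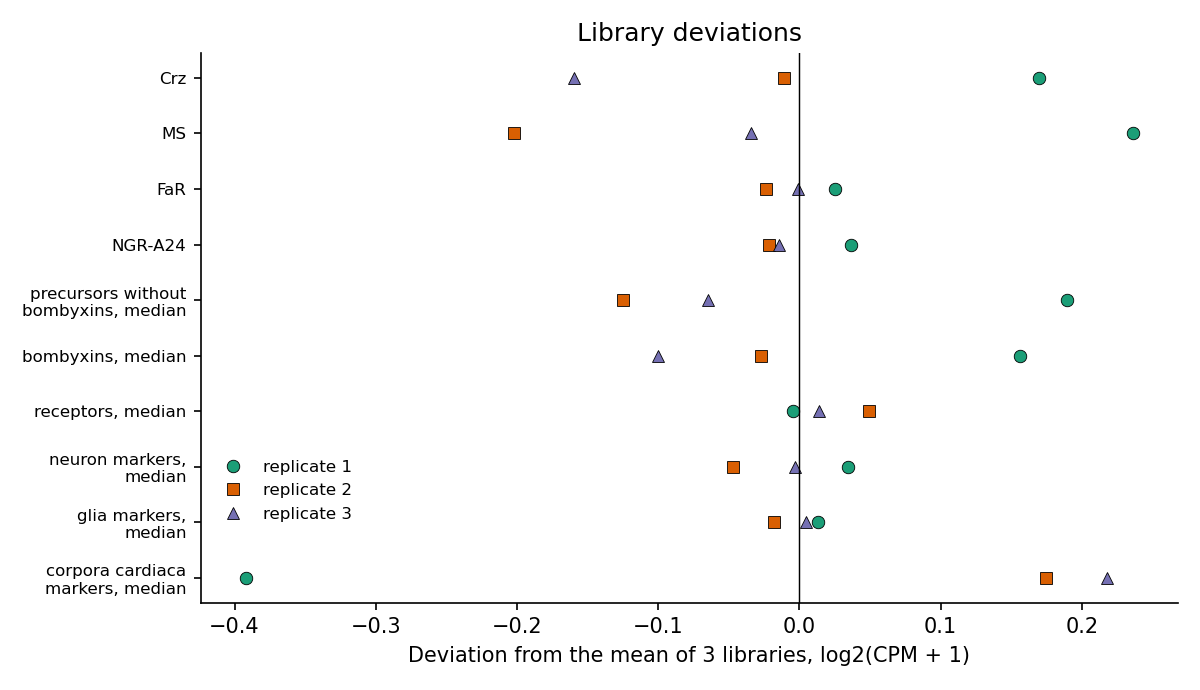
Difference in log2(CPM + 1) between each library and the 3-library mean, for the 4 members and for the median of gene lists (genes averaging 10 or more counts). Replicate 1 lies 0.17 and 0.24 above the mean for Crz and MS and 0.02 and 0.04 above for FaR and NGR-A24, while the median of AKH1 and AKH2 lies lowest in replicate 1.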

How the data were processed

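Per the labels' protocols, Trizol was used for RNA extraction and an NEBNext Ultra kit for the libraries. Tools named in the submitters' processing notes are HISAT2, featureCounts and Trim Galore. For their versions, and for the genome build, annotation and strand setting, no source used here gives an entry. The deposited raw counts per gene are whole numbers for 3 libraries, per the file headers. The deposited TPM were scaled by the authors per gene length and library. Symbols were looked up in the RefSeq gene table of ASM3026992v2 (14944 of 17072 identifiers matched), used for names only.

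Here TMM factors and genewise BCV were computed in edgeR 4.0.16 (intercept-only design, filterByExpr), with estimates at the lower limit of its grid set to 0. Size factors and dispersions from DESeq2 1.42.0 served as alternatives. Counts of genes with a mean of at least 10 were tested for homogeneity by chi-square in SciPy 1.17.1, with Benjamini-Hochberg adjustment over all genes tested and a threshold of 0.05. This test compares libraries, and its p-values and the intervals cover counting error only. On counts simulated with sampling noise alone it called 0 of 10672 genes. These counts were drawn from the library sizes the test uses, so few calls were fixed in advance. Of 50 genes changed 1.25-fold in 1 library it called 70%, and of 50 changed 1.5-fold 82%. A gene with no count may lie anywhere up to 3 counts, or 0.126 to 0.167 CPM in the 3 libraries.

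The members and lists were chosen with earlier results of these data known. Lists were matched by symbol or synonym; Far, serpin-1 and a gene matched through the synonym sk were left out as false matches. Named genes are the members, their 4 nearest genes, the 3 highest of each list, known partners and the processing list. EH, PTSP, NGR-A18, Dhr-1, AKH1, AKH2, pburs and PBAN were named after their values were seen. Alternatives covered scaling, filters, pseudocounts, thresholds and leaving out each replicate. The planned search of promoters for G-quadruplex letters was not run, because no promoter sequence was used here.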

Additional observations from a re-analysis of the deposited data

How the results depend on the processing

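All 72 alternative values of the members' TPM and CPM levels and of the log2 precursor to receptor ratios (other scaling, pseudocounts of 1 and 0.1, each replicate left out) moved by less than 1 SD. With a replicate left out this had to hold for TPM levels and ratios, and nearly so for CPM levels. Dropping 1 of 3 libraries cannot move their mean by 1 SD, so those values do not test stability. The chi-square calls of Crz and MS, and the lack of one for FaR and NGR-A24, held under every alternative run. Leaving out 1 replicate gave 1989 to 5163 genes called over the table, 8 to 32 precursors, 8 to 20 precursors without bombyxins and 4 to 10 receptors. In each case the lowest count came without replicate 1, whose cause was not tested. The share of genes with a lower BCV ran from 58.6 to 81.3% for Crz and from 75.2 to 87.2% for MS when a replicate was left out, and was 58.02% and 64.8% with no filter on low counts. The precursor median was 15.98 in CPM, 72.0 TPM over expressed members (1 TPM in each library) and 43.3 TPM without the bombyxins. The receptor median was 5.26 TPM over expressed members, and 16 receptors reached 5 TPM in every library. The median of Syti and Rab3 was 201 in CPM. No paired analysis was possible because all 3 libraries belong to 1 group. Depth limits the ratio of Crz to the corazonin receptor, which rests on 26 to 35 receptor counts per library.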
